A study of Homo sapiens with 24 samples.

Results

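The genes described here are 35 genes of the NRF2 pathway and of the oxidant defence it controls, out of 60668 genes listed in at least 1 of the deposited tables. They were named one by one: 3 regulators, 6 genes of glutathione metabolism, 4 of the thioredoxin system and 4 grouped under NADPH supply. The rest were 10 enzymes acting on quinones, carbonyls, aldehydes and related compounds, 3 export pumps, 3 genes of iron and heme, and 2 further targets. All 35 were listed for A549, DMS454 and H1694, and 33 for H1299. The genes with enough reads to be tested numbered 35 in A549, 31 in H1299, 34 in DMS454 and 30 in H1694.

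Total RNA of 4 human lung cancer cell lines was sequenced in 24 stranded libraries, 3 per group, described by the submitters as independent biological replicates. In A549 and H1299 (NCI-H1299), cells overexpressing the cell adhesion gene HEPACAM2 (OE) were set against control cells with the genotype label WT, and in the small cell lung cancer lines DMS454 and H1694 (NCI-H1694), libraries titled CRISPR and labelled as a HEPACAM2 knockdown were set against WT controls. The labels do not give the promoter, vector or guides, or say whether the cells were clones or pools. A549 is known to carry a KEAP1 mutation, which its OE and control cells share.

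NRF2, encoded by NFE2L2, is a transcription factor that is held at low levels by KEAP1, an adaptor that hands it to a ubiquitin ligase. When oxidants or electrophiles modify KEAP1, or when KEAP1 is mutated, NRF2 accumulates, pairs with a small MAF protein such as MAFG and binds antioxidant response elements beside its target genes. Many lung cancers carry mutations of this pathway, and its targets include enzymes that make and recycle glutathione, reduce thioredoxin, produce NADPH and detoxify reactive carbonyls.

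The library labels could be checked against HEPACAM2 itself. It had 6074, 5864 and 6084 normalized counts (counts divided by the authors' size factors) in A549 OE libraries, against 1.1, 0 and 0 in controls, and 27257, 25000 and 23710 in H1299 OE libraries, against 3.49, 3.07 and 2.08. In DMS454 it had 11460, 11256 and 10844 normalized counts in libraries labelled CRISPR, against 6430, 6543 and 6677 in controls, and in H1694 it had 10124, 10545 and 10399, against 3433, 3551 and 3688. The libraries labelled CRISPR thus held more HEPACAM2 than their controls, against the knockdown label, with log2 fold changes of 0.77 in DMS454 and 1.54 in H1694, and every direction below for these lines is that of the library labelled CRISPR against the library labelled control. Fold changes deposited by the authors for these lines run the other way, with the libraries titled control on top. For A549 and H1299 the deposited fold changes have the OE libraries on top. In DMS454 and H1694 the column names carry a G for libraries titled control and pL for those titled CRISPR. Whether the titles were exchanged was not tested; if they were, every direction given for DMS454 and H1694 would turn round. Libraries held 12704476 to 31770858 reads. Summed neuroendocrine markers stood at 6570 to 7060 RPM (reads of a gene scaled to a common library total) in DMS454 and 2192 to 2337 in H1694, and at no more than 24 in A549 and H1299. Epithelial markers summed to 7.94 to 13.5 RPM in H1694 and to at least 839 in the other lines. Mitochondrially encoded reads made up 3.8 to 6.5% in H1299 OE libraries, highest in OE 1, and 4.7 to 6.8% in controls. They made up 3.1 to 5.4% in DMS454 libraries labelled CRISPR, highest in library 3, and 4.6 to 5.0% in controls. In H1694 they made up 3.2 to 6.3% in libraries labelled CRISPR and 3.6 to 5.0% in controls. Their part in the results was not tested. Both H1299 libraries numbered 1 stood apart: the difference between GC-rich and GC-poor genes, taken against the other libraries of the group on the log2 scale, was -0.51 in OE 1 and 0.56 in control 1, against -0.29 to 0.26 in the other H1299 libraries and -0.06 to 0.07 in the other lines. CRISPR library 3 of DMS454 lay nearest to the control mean in 17 of the 19 members that passed the test (89.5%), against 63.9% of all genes that passed. The main values use all libraries, and those of the counts and of the members described in full are also given without these. The libraries were set apart after their values were seen, so values without them are a description and not an independent check.

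Promoter sequences are shown first because NRF2 acts through a DNA element beside its targets. RefSeq (GRCh38.p14) promoters, each 300 bases long with 250 bases before and 50 after the start of the gene, were matched for 26 members by symbol. They were searched on both strands for TGACNNNGC, the core letters of the antioxidant response element. Those letters were found for 9 of the 26 members (34.6%), in 10 of 34 member promoters (29.4%), against 4687 of all 35116 promoters (13.3%). The 9 were CBR1, EPHX1, GCLM, GPX2, KEAP1, ME1, PGD, PIR and TXNRD1. The windows below belong to the genes with the largest fall in A549 (GPX2), with a call in all lines (EPHX1), to the targets GCLM, TXNRD1 and ME1, and to KEAP1, and show the matched letters of either strand in capitals, read 5′ to 3′ along the gene's strand.
GPX2 chr14:64942838-64942888 (minus strand): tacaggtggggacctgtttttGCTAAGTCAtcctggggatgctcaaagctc
EPHX1 chr1:225825255-225825305 (plus strand): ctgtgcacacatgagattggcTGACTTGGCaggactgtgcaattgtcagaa
GCLM chr1:93909435-93909485 (minus strand): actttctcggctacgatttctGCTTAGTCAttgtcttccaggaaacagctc
TXNRD1 chr12:104215659-104215709 (plus strand): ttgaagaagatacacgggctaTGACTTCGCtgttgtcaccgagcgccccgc
ME1 chr6:83431159-83431209 (minus strand): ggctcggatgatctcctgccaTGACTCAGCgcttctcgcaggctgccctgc
KEAP1 chr19:10502773-10502823 (minus strand): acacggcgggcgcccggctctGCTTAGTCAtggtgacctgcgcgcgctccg
The GPX2 match began 122 bases before the annotated start and the GCLM match 34 bases before it. The ME1 window also holds TGACTCA, the letters of an AP-1 element, inside the match. The starts are those of RefSeq, and by GENCODE release 29 the windows of GPX2, EPHX1 and KEAP1 lie inside the gene and that of GCLM partly so. A match is a description of letters in this window and not evidence of binding.

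The lines differed widely in how much of these genes their control cells expressed. The tables were normalized separately, so these levels, in RPM as means of 3 control libraries, are a description without a test. A549 had the highest level of 23 of the 35 members, DMS454 of 11, H1299 of 1 and H1694 of none. Of the 33 members listed in both, 32 were higher in A549 than in H1299, with a median ratio of 6.98. Between the small cell lines, 32 of 35 were higher in DMS454 than in H1694, and among the 32 members with reads in both the median ratio was 3.14. Such counts and ratios over all genes are not given here. How far the members depart from genes in general therefore cannot be read from these. The order of the lines was kept for 31 members under a scaling over all 24 libraries (TMM), and the line with the highest level for 33.

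NFE2L2 and KEAP1 differed little between the lines, and MAFG more, from 70.6 RPM in H1299 to 214 in DMS454. NFE2L2 stood at 88.3 RPM in A549, 87.5 in H1299, 69.3 in DMS454 and 85.8 in H1694, and the libraries of A549 and H1299, and those of H1299 and H1694, overlapped. KEAP1 stood at 109 RPM in A549, 84.9 in H1299, 130 in DMS454 and 112 in H1694, where only DMS454 lay above all others without overlap. The target enzymes spread much further. NQO1, which reduces quinones by transfer of a pair of electrons, stood at 1822 RPM in A549, 129 in H1299, 432 in DMS454 and 17.8 in H1694, with no overlap between lines. The aldo-keto reductase AKR1B10 stood at 2194 RPM in A549, 443 in DMS454, 7.66 in H1694 and 0.0328 in H1299, the last of these resting on 2 reads in 3 libraries. The steroid and carbonyl reductase AKR1C2 had 2111 RPM in A549, 223 in DMS454, 1.73 in H1299 and no read in H1694, which allows up to 0.0419 RPM by counting error. The aldehyde dehydrogenase ALDH3A1 stood at 2510 RPM in A549 and 0.993 in H1694, had no read in DMS454 and was not listed for H1299. The gut-type glutathione peroxidase GPX2 was highest in DMS454, at 682 RPM, followed by A549 at 374, and stood at 0.105 in H1694.

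**Figure D1:**
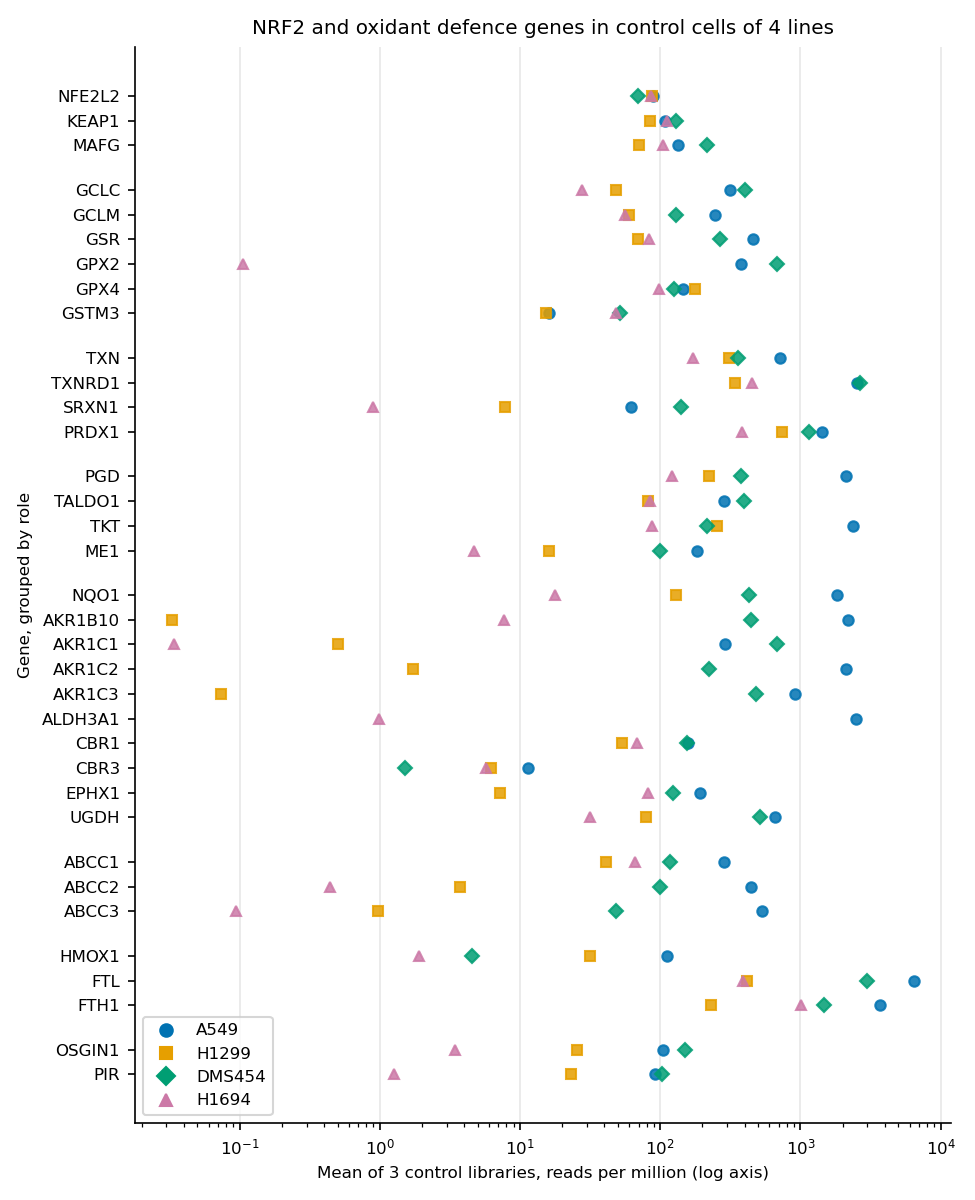
Mean level of each member in the 3 control libraries of A549, H1299, DMS454 and H1694, in RPM on a log axis, with the genes grouped by role down the page and a level of 0 or an unlisted gene left out. NFE2L2 lies between 69.3 and 88.3 in all lines, whereas AKR1B10 runs from 0.0328 in H1299 to 2194 in A549.

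Scaled by length, the ferritin light chain FTL, part of the iron store, was the most abundant of these in A549 controls at 7324 RPKM (RPM per kilobase of exon), followed by the heavy chain FTH1 at 1827 and AKR1B10 at 1258. In H1694 controls FTH1 and FTL stood at 497 and 440 RPKM, the peroxide-reducing PRDX1 at 250 and TXN at 150, while NQO1 was at 5.48. Reads of FTL, FTH1 and TXN are uncertain, since 16, 25 and 7 annotated pseudogenes carry their names. The exons of FTH1 also overlap BEST1 on the opposite strand over 62.4% of their bases, and SRXN1 overlaps a second annotated gene on its own strand over 85%.

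In A549, most of these genes were lower in the HEPACAM2-overexpressing cells. Of the 35 members tested with limma, 25 were lower and 3 higher in OE cells at an adjusted p under 0.05, against 44.4% of all genes tested that passed in either direction (22.5% higher and 21.9% lower). Their median log2 fold change was -0.18, against 0.00 over all genes tested. The members passing neither way were NFE2L2, GCLC, GPX4, GSTM3, TXN, SRXN1 and FTL. The groups of 3 libraries did not overlap in 30 members, 26 with OE below and 4 with OE above, against 51.8% of all genes tested.

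**Figure D2:**
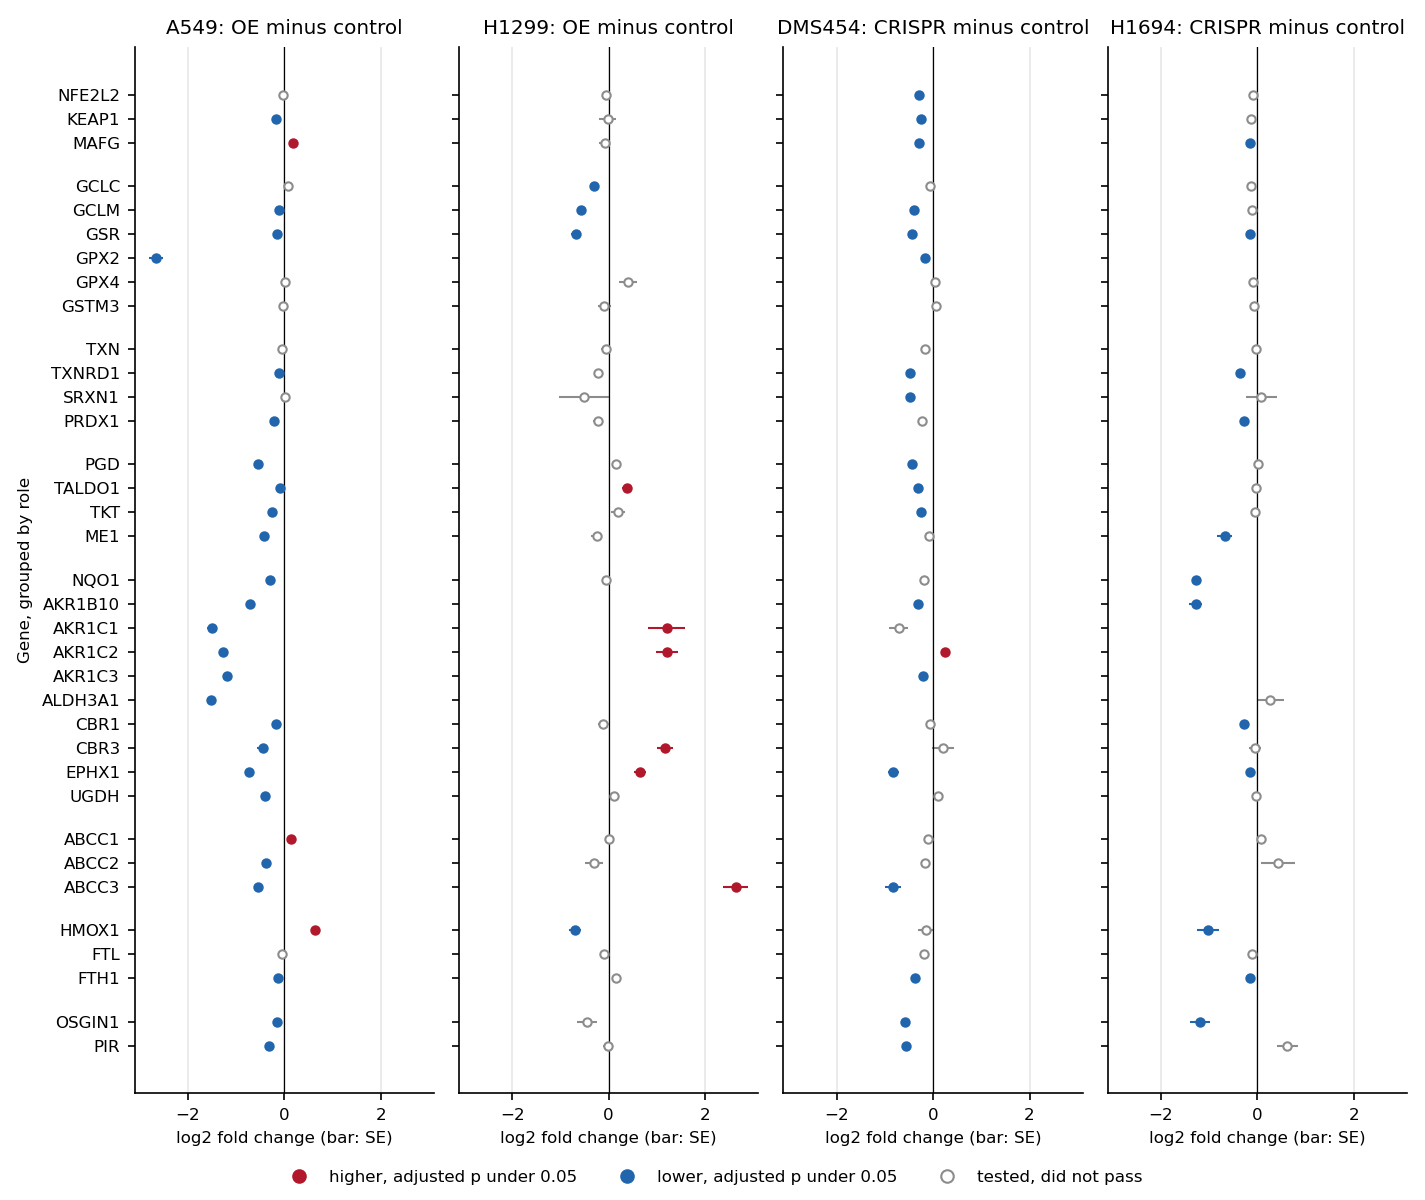
Log2 fold change of each member in A549 and H1299 (OE minus control) and in DMS454 and H1694 (CRISPR minus control), with bars for the SE, filled points for an adjusted p under 0.05 and open points for genes that did not pass. In A549 25 filled points lie left of 0 and 3 right of it, while H1299 shows 4 left and 6 right.

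GPX2 (chromosome 14, 64939152 to 64942905 on hg38), a peroxidase that uses glutathione, fell furthest. It had 1251, 1316 and 975 normalized counts in A549 OE libraries, against 7578, 8026 and 6692 in controls. The highest OE library was far below the lowest control, and the fold change was -2.66 on the log2 scale (SE 0.15, adjusted p = 0.00016, limma), which is 6.33-fold lower. The rate-limiting genes of glutathione synthesis moved much less: GCLM, the modifier subunit of glutamate-cysteine ligase, fell by 0.10 and the catalytic subunit GCLC had a log2 fold change of 0.07 that did not pass (adjusted p = 0.09, limma). GSR, which returns oxidized glutathione to its reduced form, fell by 0.15 on the log2 scale.

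The enzymes acting on quinones, carbonyls and aldehydes formed the group with the largest shift in A549, with 10 of 10 lower and a median log2 fold change of -0.72. ALDH3A1 (chromosome 17, 19737984 to 19748943), which oxidizes aldehydes, had 18035, 18096 and 16234 normalized counts in OE libraries, against 50671, 51925 and 46833 in controls. The OE and control libraries were widely separated, with a log2 fold change of -1.51 (SE 0.04, adjusted p = 6e-18, limma), or 2.85-fold lower.

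The neighbouring aldo-keto reductase genes of chromosome 10 fell together. AKR1C1 (4963253 to 4983283) had 2240, 2122 and 1780 normalized counts in OE libraries, against 6078, 5967 and 5328 in controls. AKR1C2 (4987400 to 5018031) had 18312, 18063 and 15825 normalized counts in OE libraries, against 42726, 42879 and 40055 in controls. AKR1C3 (5035354 to 5107686) had 8386, 8057 and 7290 normalized counts in OE libraries, against 18461, 18600 and 17147 in controls. In each of these genes all OE libraries lay below all controls, and OE library 3 was the lowest. The log2 fold changes were -1.50 for AKR1C1, -1.27 for AKR1C2 and -1.19 for AKR1C3, with adjusted p of 0.0002, 1.7e-11 and 1.4e-17 by limma.

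These genes are near copies, so reads can be assigned to the wrong one. Of all 50-base words in the annotated protein-coding transcripts of AKR1C2, 43.2% also occurred in those of AKR1C1, and 26.6% of AKR1C1 words occurred in AKR1C2, while AKR1C3 shared 6.1% of its words with AKR1C1 and 7.6% with AKR1C2. Their promoters are alike as well: RefSeq sequence of AKR1C1 (chr10:4963169-4963413, plus strand) and AKR1C2 (chr10:5003863-5004107, minus strand) is identical over 245 bases before the starts, shown once here because a promoter sequence cannot tell the pair apart.
AKR1C1 and AKR1C2: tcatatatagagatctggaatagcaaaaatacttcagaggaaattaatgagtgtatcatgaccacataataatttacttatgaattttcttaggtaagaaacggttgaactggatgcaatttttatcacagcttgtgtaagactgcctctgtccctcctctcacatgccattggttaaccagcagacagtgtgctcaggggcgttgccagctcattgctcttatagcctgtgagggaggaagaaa
The counting rule for reads that match several genes is not given in the sources used here, so a value for AKR1C1 or AKR1C2 alone is uncertain in every line.

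EPHX1, the microsomal epoxide hydrolase, had 2367, 2258 and 2230 normalized counts in A549 OE libraries, against 3901, 3889 and 3578 in controls. AKR1B10 had 27375, 26570 and 25905 normalized counts in OE libraries, against 44236, 44578 and 41772 in controls. Neither gene's groups overlapped, and the log2 fold changes were -0.73 for EPHX1 and -0.71 for AKR1B10 (adjusted p = 5.4e-20 and 2.6e-23, limma). NQO1 fell by 0.29, UGDH, which makes UDP-glucuronate for conjugation, by 0.40, and the carbonyl reductases CBR1 and CBR3 by 0.17 and 0.45 on the log2 scale. CBR3 shares 42.2% of its exon bases with the antisense gene CBR3-AS1.

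**Figure D3:**
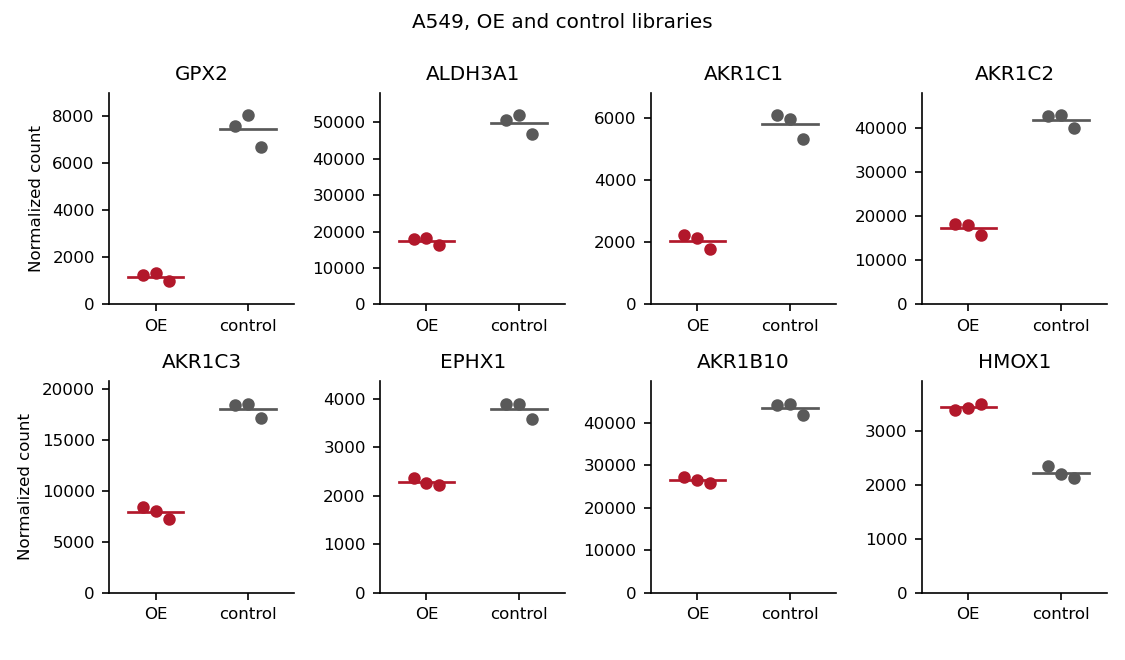
Normalized counts (axis from 0) of the 8 members with the largest changes in A549, as 1 point per library with OE to the left of control and a line at the mean of each group of 3. GPX2 lies at 975 to 1316 in OE libraries and at 6692 to 8026 in controls, and HMOX1 is the gene of this set that is higher in OE libraries.

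NADPH is the reductant that glutathione and thioredoxin reductases consume. All 4 members grouped under its supply fell in A549, with a median log2 fold change of -0.34. Of these, TKT and TALDO1 do not make NADPH themselves. The pentose phosphate enzyme PGD fell by 0.55 and the malic enzyme ME1 by 0.41, while the transketolase TKT and the transaldolase TALDO1 fell by 0.26 and 0.09. In the thioredoxin system PRDX1 fell by 0.21 and the thioredoxin reductase TXNRD1 by 0.10, and neither thioredoxin (TXN, -0.04) nor the sulfiredoxin SRXN1 (0.02) passed. Of the pumps that export conjugates, ABCC3 and ABCC2 fell by 0.55 and 0.37, and ABCC1 rose by 0.14. The remaining targets OSGIN1 and PIR fell by 0.16 and 0.31.

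HMOX1, the heme oxygenase, which releases iron from heme and is controlled by the repressor BACH1 as well as by NRF2, went the other way in A549. It had 3397, 3430 and 3509 normalized counts in OE libraries, against 2348, 2204 and 2130 in controls. All OE libraries lay above all controls, with a log2 fold change of 0.63 (SE 0.04, adjusted p = 8.5e-18, limma), or 1.55-fold higher. FTH1 fell by 0.12, and FTL did not pass (-0.04).

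The regulators moved little in A549. NFE2L2 had 1718, 1696 and 1739 normalized counts in OE libraries, against 1742, 1775 and 1741 in controls, and its log2 fold change of -0.03 (SE 0.04) had an adjusted p of 0.62 by limma. The groups did not overlap, but the gap between them was smaller than the spread within either. KEAP1 had 1935, 1844 and 1950 normalized counts in OE libraries, against 2112, 2287 and 2081 in controls, without overlap (-0.18, SE 0.04, adjusted p = 0.00081, limma). MAFG rose by 0.18.

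Other genes of the pathway in A549 came from a list of 63 that were not members. Of the 57 tested, 25 were lower and 10 higher, against 44.4% of all genes tested that passed in either direction. TXNIP, which binds and inhibits thioredoxin, averaged 20.6 ± 5.04 normalized counts in OE libraries and 118 ± 17.2 in controls (SD, n = 3 each), a log2 fold change of -2.48 (adjusted p = 2.3e-14, limma). The carboxylesterase CES1 and the cytochrome P450 CYP4F11 each fell by 1.22, and the biliverdin reductase BLVRA by 0.60. Among those higher were SLC7A11, which imports cystine for glutathione synthesis, and the antioxidant selenoprotein GPX1. Epithelial markers fell in the same libraries, 5 of 5, with summed levels of 6601 to 6800 RPM in OE libraries and 8228 to 8462 in controls, and the share of mitochondrially encoded reads was 5.77 to 6.17% in OE libraries and 6.22 to 8.14% in controls; the part of either in these results was not tested. Fibroblast markers summed to 14.4 to 16.4 RPM in OE libraries and 6.4 to 7.11 in controls, with 1 of 3 tested higher (THY1, 253 against 66.6 normalized counts, log2 fold change 1.91) and the part of these in the results not tested. In bulk cultures, fewer cells of a type and less RNA per cell cannot be told apart. The count of 28 members lay between 25 and 28 when any 1 library was left out, with GCLM, TALDO1 and TXNRD1 the members that lost their calls without OE 2, OE 3, control 1 or control 2 (adjusted p of 0.052 to 0.2, limma), and was 28 with edgeR, DESeq2 and limma-voom on the recovered reads.

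In H1299, the genes that passed went in both directions. Of 31 tested, 6 were higher and 4 lower in OE cells, against 28.8% of all genes tested that passed in either direction (13.5% higher and 15.3% lower), and the median log2 fold change was -0.06. GPX2 and ALDH3A1 were not listed, and AKR1B10 and AKR1C3 had too few reads to be tested, with 9 and 8 reads in OE libraries and 2 and 4 in controls. The groups did not overlap in 17 members, 8 with OE above and 9 with OE below, against 43.3% of all genes tested.

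ABCC3 (chromosome 17, 50634777 to 50692252), the export pump for glucuronide and glutathione conjugates, rose furthest. It had 140, 94.2 and 106 normalized counts in H1299 OE libraries, against 17.5, 13.3 and 21.8 in controls. Every OE library exceeded every control several times over, with a log2 fold change of 2.63 (SE 0.25, adjusted p = 0.00023, limma), or 6.21-fold higher. Without both libraries numbered 1 it was 2.48 (adjusted p = 1.1e-07, limma).

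AKR1C2 had 88.3, 62.4 and 67.7 normalized counts in H1299 OE libraries, against 28.8, 25.6 and 38.5 in controls. The groups did not overlap, OE library 1 was the highest, and the log2 fold change was 1.21 (SE 0.23, adjusted p = 0.005, limma), or 1.03 without both libraries numbered 1. AKR1C1 rose by 1.20 with adjusted p = 0.047 by limma, on 75 reads in OE libraries and 28 in controls, and without both libraries numbered 1 its change of 0.84 did not pass (adjusted p = 0.12, limma). Leaving out any 1 of the 6 libraries also ended that call (adjusted p of 0.057 to 0.14, limma).

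CBR3 had 218, 264 and 260 normalized counts in H1299 OE libraries, against 131, 104 and 94.6 in controls. EPHX1 had 192, 214 and 200 normalized counts in OE libraries, against 135, 124 and 126 in controls. TALDO1 had 1627, 2022 and 2086 normalized counts in OE libraries, against 1600, 1350 and 1446 in controls. All 3 genes were higher in every OE library than in any control, but for TALDO1 the library OE 1 lay just above control 1. The log2 fold changes were 1.17 for CBR3, 0.65 for EPHX1 and 0.38 for TALDO1 (adjusted p = 0.001, 0.0043 and 0.032, limma), and 1.39, 0.73 and 0.56 without both libraries numbered 1. The call for TALDO1 was lost without OE 2, OE 3, control 2 or control 3 (adjusted p of 0.10 to 0.13, limma).

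Of the 5 glutathione genes tested in H1299, GSR, GCLM and GCLC fell. GSR had 780, 791 and 754 normalized counts in OE libraries, against 1094, 1371 and 1278 in controls. GCLM had 734, 735 and 694 normalized counts in OE libraries, against 1010, 1149 and 1061 in controls. In both genes the OE libraries were close to each other and below all controls, with log2 fold changes of -0.68 for GSR and -0.57 for GCLM (adjusted p = 0.0013 and 0.0014, limma), and -0.78 and -0.63 without both libraries numbered 1. GCLC fell by 0.31, a call lost without OE 2, OE 3, control 2 or control 3 (adjusted p of 0.055 to 0.091, limma). GPX4, the peroxidase of lipid peroxides, had a change of 0.40 that did not pass (adjusted p = 0.16, limma), and the glutathione transferase GSTM3 did not pass.

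HMOX1 had 297, 373 and 379 normalized counts in H1299 OE libraries, against 591, 585 and 526 in controls. It was lower in every OE library (-0.70, SE 0.12, adjusted p = 0.0028, limma), opposite to A549, and the change was -0.56 without both libraries numbered 1. NFE2L2 had 1549, 1481 and 1484 normalized counts in OE libraries, against 1477, 1574 and 1643 in controls, with overlap and a change of -0.06 that did not pass, nor at -0.12 without both libraries numbered 1 (adjusted p = 0.077, limma). KEAP1 had 1177, 1695 and 1611 normalized counts in OE libraries, against 1859, 1403 and 1284 in controls.

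For KEAP1 the libraries numbered 1 decided the value. With all libraries the log2 fold change was -0.02 (adjusted p = 0.94, limma), and without both libraries numbered 1 it was 0.30 (adjusted p = 0.00019, limma). Without these libraries 19 of the 31 members passed, 11 higher and 8 lower, against 54.9% of all genes tested, and 9 of the 10 members that passed with all libraries did so again in the same direction. Members that passed only then included GPX4 (0.77), TKT (0.46) and SRXN1 (0.47) among the higher ones and PRDX1 (-0.38) and TXNRD1 (-0.31) among the lower ones. The libraries left out deviated by -0.51 (OE 1) and 0.56 (control 1) between GC-rich and GC-poor genes. Leaving both out therefore raises GC-rich genes against GC-poor ones in OE minus control. In that run a change with overexpression and this GC trend cannot be told apart, so it is no check of the calls. The count with all libraries was 10, and it was 7 without OE 2, OE 3, control 2 or control 3, and 11 and 12 without OE 1 and control 1.

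**Figure D4:**
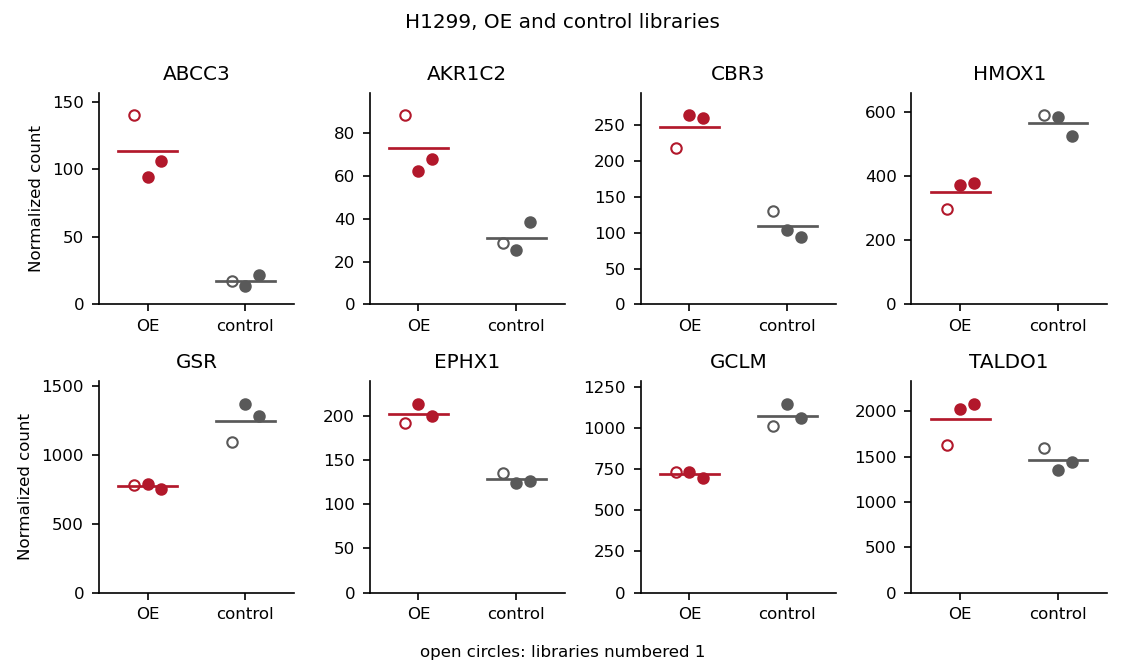
Normalized counts (axis from 0) of the 8 members with the largest changes in H1299 among those with a mean of at least 50, as 1 point per library with OE to the left of control, a line at each mean and open circles for the libraries numbered 1. ABCC3 lies at 94.2 to 140 in OE libraries and 13.3 to 21.8 in controls, while GSR, GCLM and HMOX1 lie lower in OE libraries.

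Of the 50 other pathway genes tested in H1299, 13 were higher and 9 lower, against 28.8% of all genes tested that passed in either direction. The secreted peroxidase GPX3 averaged 164 ± 5.89 normalized counts in OE libraries and 74.3 ± 5.77 in controls (SD, n = 3 each), a log2 fold change of 1.14 (adjusted p = 0.00063, limma). The pentose phosphate enzyme PGLS rose by 1.06, the sestrin SESN2 by 1.05 and the glutathione transferase GSTM2 by 1.0. The span of GSTM2 holds that of GSTM1 and overlaps that of GSTM4, and reads shared among them were not examined. In the same libraries, 1 of 2 neuroendocrine markers and 1 of 1 blood markers tested were lower. The part of these markers in the results was not tested.

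The responses of A549 and H1299 were then compared directly, as the difference of their log2 fold changes. Of 31 members tested in both lines, 16 differed at an adjusted p under 0.05 by limma, against 41.2% of all genes tested, with 4 positive and 12 negative differences (A549 minus H1299). Without both H1299 libraries numbered 1 the count was 23, against 58.1% of all genes tested, and all 16 were again called in the same direction. The limit from the GC trend given for that H1299 run applies here too. The members lower in A549 and higher in H1299 numbered 6, namely TALDO1, AKR1C1, AKR1C2, CBR3, EPHX1 and ABCC3, against 5.34% of all genes tested in both lines. The differences were -3.18 for ABCC3 (SE 0.22, adjusted p = 6e-07, limma), -2.71 for AKR1C1, -2.48 for AKR1C2, -1.62 for CBR3, -1.38 for EPHX1 and -0.47 for TALDO1. HMOX1 differed by 1.33 in the other sense. GCLM and GSR fell in both lines and fell further in H1299, with differences of 0.47 and 0.53. PGD (-0.70), UGDH (-0.51), TKT (-0.46), NQO1 (-0.24), PIR (-0.30), FTH1 (-0.28) and GCLC (0.38) made up the rest. For NFE2L2 the difference was 0.03 (SE 0.08, adjusted p = 0.81, limma).

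In DMS454, the libraries labelled CRISPR, in which HEPACAM2 was higher than in controls, had lower levels of many of these genes. Of 34 tested, 18 were lower and 1 higher, against 18.9% of all genes tested that passed in either direction (9.15% higher and 9.72% lower), and the median log2 fold change was -0.23, against 0.00 over all genes. ALDH3A1 had no read in any library. Without CRISPR library 3 the count was 27 of 34, 26 lower and 1 higher, against 34.9% of all genes tested, and all 19 members that passed with every library passed again in the same direction. That library lay nearest to the control mean in 17 of these 19. Their passing again follows in part from its choice and is no check. The count lay between 16 and 27 when any 1 library was left out, with 27 in the run without CRISPR library 3. The groups did not overlap in 23 members, 20 with CRISPR below and 3 above, against 36.6% of all genes tested.

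All 3 regulators fell in DMS454. NFE2L2 had 1146, 1216 and 1330 normalized counts in libraries labelled CRISPR, against 1498, 1549 and 1471 in controls. KEAP1 had 2497, 2407 and 2274 normalized counts in libraries labelled CRISPR, against 2728, 2821 and 2898 in controls. All libraries labelled CRISPR were below all controls in both genes, with log2 fold changes of -0.29 for NFE2L2 (SE 0.06, adjusted p = 0.0051, limma) and -0.24 for KEAP1 (SE 0.05, adjusted p = 0.0055, limma). Without CRISPR library 3 they were -0.35 and -0.20. MAFG fell by 0.29.

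EPHX1 had 1385, 1346 and 1850 normalized counts in DMS454 libraries labelled CRISPR, against 2683, 2693 and 2643 in controls. ABCC3 had 516, 513 and 782 normalized counts in libraries labelled CRISPR, against 1039, 1032 and 1097 in controls. In both genes CRISPR library 3 stood between the other libraries labelled CRISPR and the controls, which were close together. The log2 fold changes were -0.82 for EPHX1 and -0.83 for ABCC3 (adjusted p = 0.0024 and 0.012, limma), and -0.97 and -1.04 without CRISPR library 3. Without the filter on low counts ABCC3 did not pass (adjusted p = 0.066, limma).

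OSGIN1, an oxidative stress response gene, had 2012, 2159 and 2459 normalized counts in DMS454 libraries labelled CRISPR, against 3254, 3343 and 3261 in controls. PIR, an iron-binding nuclear protein, had 1456, 1391 and 1695 normalized counts in libraries labelled CRISPR, against 2274, 2209 and 2226 in controls. Neither gene's groups overlapped, and their changes were -0.58 and -0.57 (adjusted p = 9.5e-05 and 0.00012, limma), and -0.66 and -0.65 without CRISPR library 3.

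In the thioredoxin system of DMS454, TXNRD1 had 40156, 39504 and 45304 normalized counts in libraries labelled CRISPR, against 56406, 58363 and 58729 in controls. SRXN1, which repairs overoxidized peroxiredoxins, had 2093, 2147 and 2365 normalized counts in libraries labelled CRISPR, against 3033, 3129 and 3016 in controls. Both were lower in every library labelled CRISPR, by 0.48 on the log2 scale (adjusted p = 5.4e-05 and 7e-05, limma), and by 0.54 and 0.53 without CRISPR library 3. TXN and PRDX1 overlapped between the groups and did not pass with all libraries. Without CRISPR library 3 both passed, at -0.25 and -0.31 (adjusted p = 5.5e-08 and 3.7e-13, limma). That library was set apart after its values were seen, so the main result for both stays that they did not pass.

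GSR had 4066, 3938 and 4775 normalized counts in DMS454 libraries labelled CRISPR, against 5720, 5859 and 5679 in controls. PGD had 5937, 5803 and 6451 normalized counts in libraries labelled CRISPR, against 8249, 8023 and 8267 in controls. The groups were apart in both, and the log2 fold changes were -0.44 and -0.43 (adjusted p = 0.00071 and 4.8e-05, limma), and -0.52 and -0.48 without CRISPR library 3. GCLM fell by 0.39, FTH1 by 0.37, TALDO1 by 0.32, AKR1B10 by 0.32, TKT by 0.25 and GPX2 by 0.17. The call for AKR1B10 was lost without the filter (adjusted p = 0.19, limma) and on leaving out any 1 library but CRISPR 3 (adjusted p of 0.058 to 0.083, limma). That of GCLM was lost without control 3 (adjusted p = 0.05, limma), and that of GPX2 without control 3 or CRISPR 1 (adjusted p = 0.058 and 0.054, limma).

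The AKR1C genes did not move as a unit in DMS454. AKR1C2 had 5782, 5698 and 5690 normalized counts in libraries labelled CRISPR, against 4714, 4862 and 4958 in controls, and was the member that rose (0.24, SE 0.04, adjusted p = 0.0012, limma, and 0.24 without CRISPR library 3). AKR1C1 had 7980, 7606 and 12199 normalized counts in libraries labelled CRISPR, against 14726, 14664 and 15092 in controls. Its groups were apart, but its change of -0.71 (SE 0.20) did not pass with all libraries (adjusted p = 0.086, limma). The change was -0.93 without CRISPR library 3, the library labelled CRISPR that lay nearest to the controls. That omission was chosen after the values were seen, so the main result stays that AKR1C1 did not pass. AKR1C3 fell by 0.21. The part of the shared sequence of AKR1C1 and AKR1C2 in these opposite values was not tested.

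Of the 59 other pathway genes tested in DMS454, 15 were lower and 5 higher, against 18.9% of all genes tested that passed in either direction. The glucuronosyltransferase UGT1A1 fell by 0.97 and TRIM16L by 0.92. UGT1A1 lies inside the span of UGT1A6, which did not pass, and exon overlap was computed for the members only. The taurine transporter SLC6A6 rose by 0.64. Of 8 neuroendocrine markers tested in these libraries, 2 were higher and 1 lower with CRISPR, and 1 of 5 epithelial markers was lower. The part of these markers in the results was not tested.

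In H1694, none of the members was higher in the libraries labelled CRISPR and 12 of 30 were lower, against 17.6% of all genes tested that passed in either direction (8.73% higher and 8.9% lower). The median log2 fold change was -0.11, against 0.00 over all genes. The groups did not overlap in 18 members, 17 with CRISPR below and 1 above, against 35% of all genes tested. GPX2, AKR1C1, AKR1C2, AKR1C3 and ABCC3 had too few reads to be tested. In the same libraries epithelial markers summed to 7.94 to 9.92 RPM with CRISPR and 12.5 to 13.5 in controls, and fibroblast markers to 39.9 to 46.5 and 54.1 to 57.7. Endothelial markers summed to 150 to 156 RPM with CRISPR and 131 to 134 in controls, and neuroendocrine markers to 2192 to 2294 and 2295 to 2337. Among those tested, 2 of 4 epithelial, 1 of 1 fibroblast and 1 of 8 neuroendocrine markers were lower, and 1 of 2 endothelial and 1 of 8 neuroendocrine markers higher; their part in these results was not tested.

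The largest falls in H1694 were in enzymes of carbonyl and quinone reduction. AKR1B10 had 79.3, 77.5 and 67.3 normalized counts in libraries labelled CRISPR, against 172, 188 and 189 in controls. NQO1 had 188, 169 and 171 normalized counts in libraries labelled CRISPR, against 412, 450 and 415 in controls. Every library labelled CRISPR lay far below every control, and the changes were -1.28 for AKR1B10 (SE 0.13, adjusted p = 5.6e-06, limma) and -1.27 for NQO1 (SE 0.09, adjusted p = 9.8e-08, limma), 2.43-fold and 2.41-fold lower.

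OSGIN1 had 30.4, 46.7 and 30.6 normalized counts in H1694 libraries labelled CRISPR, against 90, 66.1 and 91 in controls. ME1, the cytosolic malic enzyme, had 59.9, 77.5 and 72.1 normalized counts in libraries labelled CRISPR, against 118, 121 and 98.2 in controls. At these low levels the groups were still apart, with log2 fold changes of -1.19 and -0.68 (adjusted p = 0.0011 and 0.007, limma). HMOX1, at a mean below 50, fell by 1.02 (adjusted p = 0.0053, limma), on 69 reads in libraries labelled CRISPR and 136 in controls.

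The abundant members of H1694 moved by smaller amounts. TXNRD1 had 8744, 8236 and 7914 normalized counts in libraries labelled CRISPR, against 10852, 10932 and 10426 in controls. PRDX1 had 7868, 7197 and 7635 normalized counts in libraries labelled CRISPR, against 8950, 9315 and 9001 in controls. CBR1 had 1382, 1278 and 1359 normalized counts in libraries labelled CRISPR, against 1621, 1571 and 1682 in controls. None of these groups overlapped, and the changes were -0.37 for TXNRD1, -0.27 for PRDX1 and -0.28 for CBR1 (adjusted p = 1.7e-05, 0.00035 and 0.0011, limma).

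FTH1 had 22713, 20740 and 21409 normalized counts in H1694 libraries labelled CRISPR, against 24541, 24226 and 23443 in controls. It fell by 0.16 (adjusted p = 0.013, limma), a call lost without CRISPR 2, control 1 or control 2 (adjusted p of 0.076 to 0.09, limma). GSR, MAFG and EPHX1 each fell by 0.15 with limma and did not pass with DESeq2 on the recovered reads (adjusted p = 0.077, 0.063 and 0.082). Each of these calls was also lost without CRISPR 2 or any 1 control, and that of EPHX1 without CRISPR 3 (adjusted p of 0.073 to 0.14, limma). The count of 12 lay between 8 and 16 when any 1 library was left out, and DESeq2 on the recovered reads called 9.

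NFE2L2 and KEAP1 did not pass in H1694. NFE2L2 had 2037, 1898 and 1794 normalized counts in libraries labelled CRISPR, against 2074, 2047 and 2022 in controls, with overlap and a change of -0.10 (SE 0.05, adjusted p = 0.18, limma). KEAP1 had 2616, 2376 and 2365 normalized counts in libraries labelled CRISPR, against 2719, 2679 and 2622 in controls, narrowly apart, with a change of -0.13 (SE 0.05, adjusted p = 0.081, limma). Without CRISPR library 1 both passed, at -0.15 and -0.17 (adjusted p = 0.019 and 0.0038, limma). That library had the highest value of its group in both genes and was not among those set apart. The share of all genes passing in that run is not given here. The main result stays that neither passed. PIR was the member higher in every library labelled CRISPR, and did not pass (0.62, adjusted p = 0.07, limma).

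**Figure D5:**
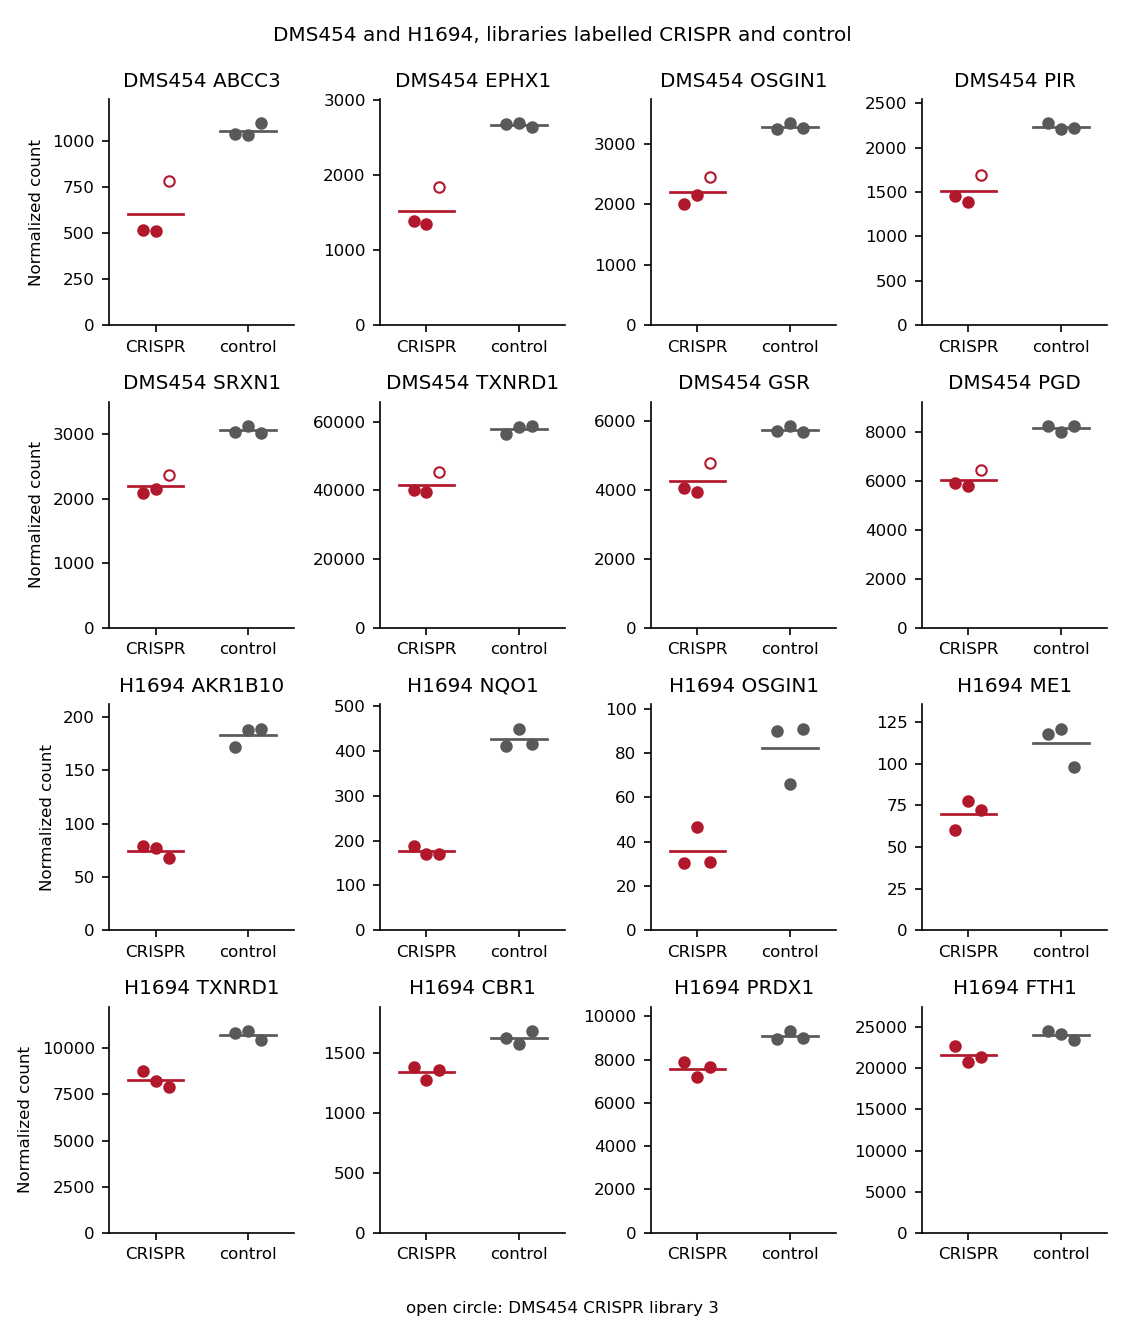
Normalized counts (each axis from 0) of the 8 members with the largest changes and a mean of at least 50 in DMS454 (upper rows) and H1694 (lower rows), as 1 point per library with CRISPR to the left of control, a line at each mean and an open circle for CRISPR library 3 of DMS454. In EPHX1 of DMS454 that library lies at 1850, above 1385 and 1346 in the other libraries labelled CRISPR and below 2643 in the lowest control.

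Of the 50 other pathway genes tested in H1694, 8 were lower and 5 higher, against 17.6% of all genes tested that passed in either direction. GPX3 fell by 0.65, the biliverdin reductase BLVRB by 0.55 and the microsomal glutathione transferase MGST2 by 0.39. TXNIP, which fell in A549, averaged 3844 ± 150 normalized counts in libraries labelled CRISPR and 2930 ± 69.8 in controls (SD, n = 3 each), a log2 fold change of 0.39 (adjusted p = 1.3e-05, limma).

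Between the small cell lines, 10 of 29 members tested in both differed in their change at an adjusted p under 0.05 by limma, against 20.2% of all genes tested, with 5 positive and 5 negative differences (DMS454 minus H1694). NQO1 (1.09, SE 0.09, adjusted p = 8.2e-07, limma), AKR1B10 (0.96), HMOX1 (0.88), ME1 (0.60) and CBR1 (0.22) had the lower value in H1694. PIR (-1.19), EPHX1 (-0.67), PGD (-0.46), GSR (-0.29) and TALDO1 (-0.29) had the lower value in DMS454. Without CRISPR library 3 of DMS454 the count was 17, against 27.0% of all genes tested, with 4 positive and 13 negative differences, and 9 of the 10 remained, the exception being HMOX1 (0.79, adjusted p = 0.051, limma).

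Across the study, GSR was lower in all 4 comparisons by limma, and EPHX1 passed in all 4, lower in A549, DMS454 and H1694 and higher in H1299. HEPACAM2 itself was higher in the OE libraries and in those labelled CRISPR. The directions for DMS454 and H1694 thus follow the titles and cannot be read as those of a HEPACAM2 knockdown. In H1694 both calls were lost with DESeq2 and on leaving out single libraries. In both small cell lines 7 members fell, namely MAFG, GSR, TXNRD1, AKR1B10, EPHX1, FTH1 and OSGIN1, against 1.28% of all genes tested in both. The calls of TXNRD1 and OSGIN1 held in both lines under every alternative run, whereas MAFG, GSR, EPHX1 and FTH1 in H1694 and AKR1B10 in DMS454 lost theirs under at least 1. With all libraries used, GPX4, GSTM3, TXN and FTL, 4 members, passed in none, and 28 members were tested in all 4 lines. GPX4 and TXN passed in H1299 without both libraries numbered 1 (0.77 and -0.22), and TXN and FTL in DMS454 without CRISPR library 3 (-0.25 and -0.26). Those libraries were set apart after their values were seen, so these passes do not replace the main result. NFE2L2 itself passed in DMS454 alone with all libraries used.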

How the data were processed

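The deposited tables, 1 per line, hold a signal per library, namely counts divided by the authors' DESeq2 size factors, per the file headers and the submitters' processing notes, which also name CASAVA, FastQC, Trim Galore, STAR and hg38. The sources used here name no versions, counter or annotation. Deposited log2 fold changes, their p-values, the mean signal and the Wald score of the authors were not used for any value printed; in DMS454 and H1694 their sign is opposite to that used here. Values came out as whole reads within 0.01 in 100.0% of cases, which gave read totals and RPM.

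The test was run per line, on genes averaging 10 or more in either group, with limma 3.58.1 (trend and robust) on log2(value + 1) in R 4.3.3, adjusted over all genes tested (Benjamini-Hochberg, threshold 0.05). Fold changes on this scale understate those of low genes. Differences between lines were line by treatment interactions. The method was tested on simulated counts. Symbols, exon lengths and overlaps came from GENCODE release 29, with 99.5% of identifiers matched. Named in full were up to 8 called members per line with the largest changes and a mean of at least 50, NFE2L2, KEAP1 and HEPACAM2, and up to 4 other pathway genes. For 1 other pathway gene no result is reported here. AKR1C1 and HMOX1, at lower means, and SLC7A11 and GPX1 were added after their values were seen. The members and lists were chosen with earlier results of these data known. SOD2 matched 2 identifiers and was left out. Alternatives were edgeR 4.0.16, DESeq2 1.42.0 and limma-voom on recovered reads, TMM scaling, other filters, a pseudocount of 5, a replicate block and leaving out libraries. Intervals and floors (3 reads) cover counting error only.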

Additional observations from a re-analysis of the deposited data

Results flagged for a closer look

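Between A549 and H1299, the change with HEPACAM2 overexpression differed in 9 of the members described in full, by the test of the difference itself. Over all genes tested, 41.2% differed. Members were described in full for large changes in these same lines, so such counts rest partly on that choice. The differences of log2 fold changes (A549 minus H1299) were -3.18 for ABCC3, -2.71 for AKR1C1, -2.48 for AKR1C2, -1.62 for CBR3, -1.38 for EPHX1 and -0.47 for TALDO1, and 1.33 for HMOX1, 0.53 for GSR and 0.47 for GCLM. Between DMS454 and H1694, 8 such members differed, against 20.2% of all genes tested. The differences (DMS454 minus H1694) were 1.09 for NQO1, 0.96 for AKR1B10, 0.60 for ME1 and 0.22 for CBR1. They were -1.19 for PIR, -0.67 for EPHX1, -0.46 for PGD and -0.29 for GSR. Other members also differed between the lines and were given with the comparisons.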

How the results depend on the processing

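Replicate numbers did not pair the libraries: same-numbered libraries correlated in their deviations from the group means at -0.065 to -0.014 (A549), -0.538 to -0.181 (H1299), 0.01 to 0.027 (DMS454) and -0.085 to 0.123 (H1694). With the replicate block, 27 members passed in A549, 6 in H1299, 21 in DMS454 and 14 in H1694. The whole H1299 table gave 1634 called genes (4665 without the block). For the other lines no whole-table count under the block is given, so their counts of members stand without that comparison. Those under edgeR, DESeq2 and limma-voom do so as well. EPHX1, AKR1C1, TALDO1 and GCLC no longer passed in H1299 with the block (adjusted p = 0.052, 0.094, 0.13 and 0.14, limma). Without both H1299 libraries numbered 1, 19 members and 8922 genes passed. Leaving out 1 library in turn gave 25 to 28 members (A549), 7 to 12 (H1299), 16 to 27 (DMS454) and 8 to 16 (H1694), and 13 to 17 and 8 to 17 members for the differences of A549 minus H1299 and DMS454 minus H1694. The 17 of the last range came without CRISPR library 3 of DMS454. Over whole tables the same gave 6442 to 6987 genes for A549 (7417 with all libraries) and 2674 to 5429 for H1299. It gave 1964 to 6605 for DMS454 (3560 with all libraries) and 1835 to 4510 for H1694 (3134 with all libraries). KEAP1 in H1299 (-0.02) lay between -0.13 and 0.14 without 1 library, with 0.14 without OE 1 or control 1, and at 0.30 without both. ABCC3 in DMS454 did not pass without a filter (adjusted p = 0.066, limma). Under edgeR, DESeq2, limma-voom, TMM, the filters and the pseudocount, the counts of members stayed within 1.5 times those reported, and depth limits the genes with few reads in H1299 and H1694. The lowest whole-table counts came without OE 2, OE 3, control 2 or control 3 in H1299, without any library but CRISPR 3 in DMS454, and without CRISPR 2, control 1 or control 2 in H1694. The causes were not tested.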
